A study of Mus musculus with 4 samples.

Results

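The genes described here are the platelet-derived growth factor (Pdgf) ligands *Pdgfa*, *Pdgfb*, *Pdgfc* and *Pdgfd* and their receptors *Pdgfra* and *Pdgfrb*. They were picked by symbol, as every row of the 4 count matrices that carried one of these names, which gave 6 of 31053 genes, and all 6 had reads in every library. The question was which cells of the proximal testis express the ligands and which express the receptors, and whether either differed when *Sox17* was deleted. The matrices came from droplet scRNA-seq of the region holding the rete testis (RT), the epithelium that collects sperm, and the adjoining seminiferous tubules (STs), which join the RT through the Sertoli valve (SV). Testes were taken at postnatal day 14 from mice labelled C57BL/6, with 2 control and 2 Sox17-cKO libraries of 3 pooled pups each. The labels give the genotypes as SF1Cre (control) and SF1Cre:Sox17flox/flox (Sox17-cKO), whereas the study's methods describe the controls as Sox17flox/flox littermates, so that by the labels both groups carried the Cre and by the methods both carried the floxed allele. This Cre is driven by *Nr5a1* (SF1), which acts in the whole gonadal somatic lineage and is not limited to the RT.

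PDGFs are secreted as disulphide-linked dimers and act through receptor tyrosine kinases. PDGF-A and PDGF-C act mainly through PDGFRα, PDGF-B binds both receptors, and PDGF-D acts mainly through PDGFRβ. In the testis, PDGF-A from the tubules is known to act on PDGFRα-positive stromal cells and to be needed for the adult Leydig cell population, and in vessels endothelial PDGF-B recruits PDGFRβ-positive pericytes.

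On the GRCm38 build the ligand genes lie at chr5:138976014-138997370 on the minus strand (*Pdgfa*, ENSMUSG00000025856), chr15:79995874-80014977 on the minus strand (*Pdgfb*, ENSMUSG00000000489), chr3:81036416-81214040 on the plus strand (*Pdgfc*, ENSMUSG00000028019) and chr9:6168584-6378850 on the plus strand (*Pdgfd*, ENSMUSG00000032006). The receptor genes lie at chr5:75152292-75198215 (*Pdgfra*, ENSMUSG00000029231) and chr18:61045150-61085061 (*Pdgfrb*, ENSMUSG00000024620), both on the plus strand. All 6 are annotated as protein-coding, and the counts were summed over the whole gene.

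The libraries held 89969877 to 107203219 unique molecular identifiers (UMIs, each standing for 1 captured RNA molecule), and 22567 of 46001 barcodes were kept as cells with 1000 to 4500 detected genes. Between 20 and 43 barcodes were shared by any pair of libraries. Cells were clustered without the 6 Pdgf genes, and the clusters were grouped into named classes by marker genes, with "-like" added because the names were rebuilt here by a rule set after the clusters were seen. A test of a Pdgf gene between classes therefore did not use that gene to form them, although genes that vary with it may have shaped the clusters. The 227 RT-like cells (36 and 73 in the controls, 33 and 85 in Sox17-cKO) had 7 of 7 RT markers, with summed levels of 609 to 847 UMIs per 1000000 UMIs of the class (CPM) in the controls and 703 to 1018 CPM in Sox17-cKO. *Sox17*, the deleted gene, had 94 and 180 UMIs in the control RT-like cells and 11 and 23 in the Sox17-cKO RT-like cells. It was also lower in endothelial-like cells, at 508 and 344 CPM in the controls against 93.3 and 101 CPM in Sox17-cKO. These values came from 33, 62, 9 and 18 UMIs in 8, 24, 13 and 26 cells. In that class 0 of 2725 genes passed between genotypes with edgeR. The paper, by in situ hybridization in older mice, describes vascular *Sox17* as conserved in Sox17-cKO. From its own clustering of these libraries, it also describes the fall of *Sox17* as specific to the RT cluster. The cause of the lower values here was not tested. The 225 SV Sertoli-like cells were told from 5166 tubule Sertoli-like cells by 7 SV markers, at 1868 against 203 CPM. A further 2618 cells stayed unnamed and 17 mesothelial-like cells were too few to use. The orders of classes given below leave out both. Shares of UMIs held by classes describe the kept cells only. An interstitial supernatant was discarded during dissociation and barcodes above 4500 genes were left out, so these shares do not describe the tissue. All levels below are in CPM within a class, given in the order control 1, control 2, Sox17-cKO 1, Sox17-cKO 2, with the mean ± SD over these 4 libraries. Counting errors and intervals cover counting error only, and since each UMI marks the end of a transcript, no division by gene length was made.

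By mean CPM, *Pdgfa*, the main PDGFRα ligand, was highest in pericyte-like cells, next in SV Sertoli-like cells and then in differentiating spermatogonia-like cells. Pericyte-like cells were named by a marker list of pericytes and vascular smooth muscle, which the class does not tell apart. Their *Pdgfa* levels were 184, 252, 205 and 318 CPM (240 ± 59.4, n = 4). SV Sertoli-like cells had 278, 103, 115 and 133 CPM (157 ± 81.4, n = 4), from 120, 32, 36 and 71 UMIs. Control library 1 was the high one of the SV values, and the other control lay below both Sox17-cKO libraries. In tubule Sertoli-like cells *Pdgfa* was at 11.3, 2.45, 7.58 and 6.13 CPM (6.87 ± 3.67, n = 4), below every SV Sertoli-like value. RT-like cells had 41.6, 69.2, 41.4 and 25.7 CPM (44.5 ± 18.1, n = 4), from 11, 40, 10 and 17 UMIs, so that every RT-like value also lay above every tubule Sertoli-like value.

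Among germ cells *Pdgfa* followed the stages of spermatogenesis. The mean was 49.3 ± 10.5 CPM in undifferentiated spermatogonia-like cells, 81.4 ± 8.89 CPM in early and 87.2 ± 11 CPM in late differentiating spermatogonia-like cells, 48.2 ± 6.13 CPM in preleptotene-like cells and 5.91 ± 1.94 CPM in spermatocyte-like cells. The undifferentiated class was below the early differentiating class, with a log2 difference of -0.73 (SE 0.226, edgeR quasi-likelihood test with Benjamini-Hochberg adjustment, adjusted p = 0.00883). Early and late differentiating cells differed by -0.08 (SE 0.194, edgeR adjusted p = 0.793). Late differentiating cells exceeded preleptotene-like cells by 0.80 (SE 0.200, edgeR adjusted p = 0.000944), and preleptotene-like cells exceeded spermatocyte-like cells by 2.94 (SE 0.275, edgeR adjusted p = 3.32e-13). Because germ cells were numerous, the 5 germ classes together held 53.3% of the 6317 *Pdgfa* UMIs of the named classes, against 39.4% of all their UMIs. Fibroblast-like cells were at 62.2 ± 3.66 CPM and so above the RT-like mean. Early differentiating minus fibroblast-like cells gave -0.07 (SE 0.196, edgeR adjusted p = 0.740). The fitted sign is opposite to the order of the mean CPM, so which of these classes is higher depends on the scaling. Fibroblast-like cells held 21.3% of the *Pdgfa* UMIs. The SV Sertoli-like cells held 4.1% and the RT-like cells 1.2%, the latter near their 1.19% of all UMIs. Spermatocyte-like cells were taken as the background for germ cells, and the late differentiating class was above it also by cells: after thinning to 2000 UMIs per cell, 16.6% of 1854 late differentiating cells had a *Pdgfa* UMI (54.9% before thinning), against 1.05% of 1612 spermatocyte-like cells (4.04% before thinning).

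**Figure D1:**
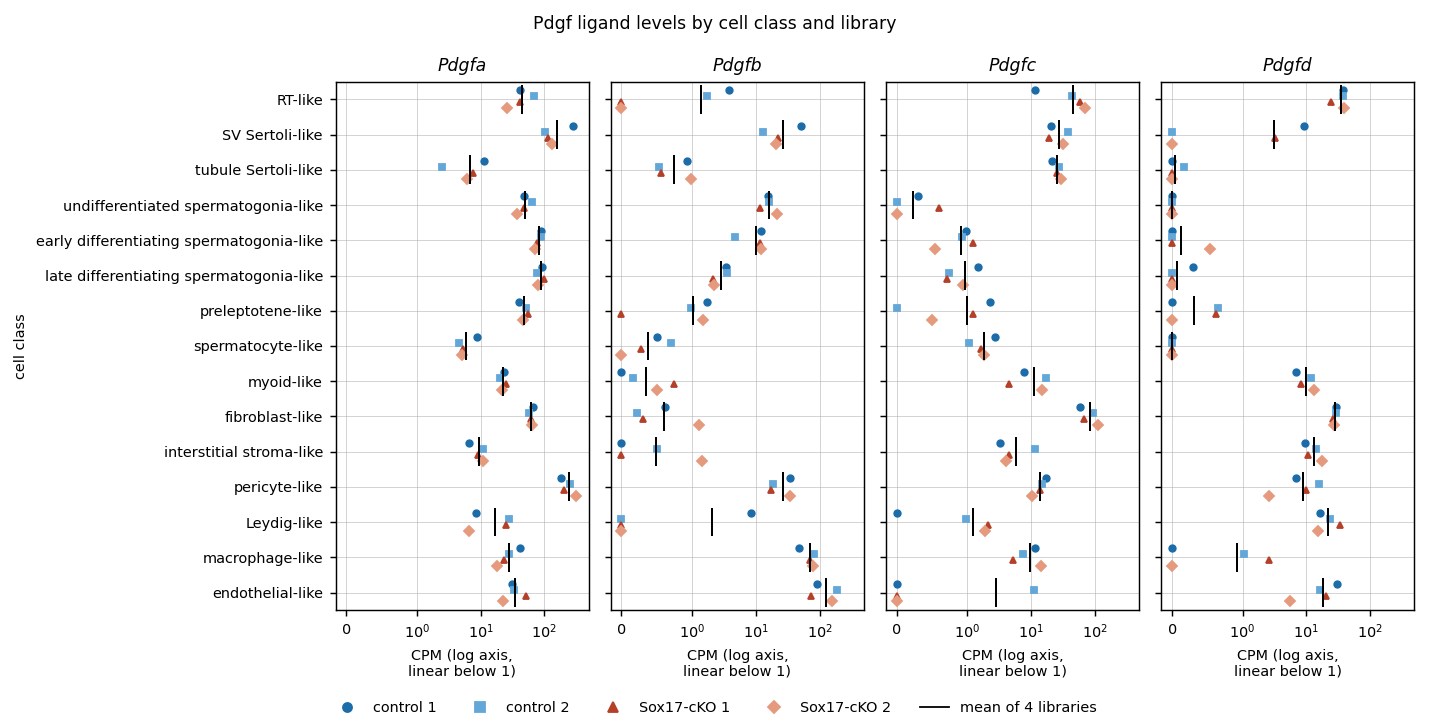
Level of each ligand gene in the 15 named cell classes, in CPM on a logarithmic axis that is linear below 1. The 17 mesothelial-like cells, with *Pdgfd* at 83.8 CPM pooled over the libraries, were too few to use and are left out. Each symbol is 1 of the 4 libraries and the bar is their mean; *Pdgfa* reaches its highest mean, 240 CPM, in pericyte-like cells, *Pdgfb* in endothelial-like cells, *Pdgfc* in fibroblast-like cells and *Pdgfd* in RT-like cells, which for *Pdgfd* did not differ from fibroblast-like cells beyond the spread.

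*Pdgfb*, the ligand of both receptors, had its highest levels in endothelial-like and macrophage-like cells, with smaller levels in SV Sertoli-like cells, pericyte-like cells and early spermatogonia. The 71 endothelial-like cells had 92.3, 189, 72.6 and 157 CPM (128 ± 54.4, n = 4), from 6, 34, 7 and 28 UMIs. Macrophage-like cells had 47.0, 83.1, 70.8 and 80.0 CPM (70.2 ± 16.3, n = 4), and with endothelial-like cells added to the class test, which was decided after the data were seen, the 2 classes differed by 0.30 on the log2 scale (SE 0.289, edgeR adjusted p = 0.486). SV Sertoli-like cells had 51.0, 12.9, 22.4 and 20.6 CPM (26.7 ± 16.7, n = 4), a level that control library 1 again led. Macrophage-like cells exceeded them by 1.90 (SE 0.328, edgeR adjusted p = 2.52e-06), whereas SV Sertoli-like and pericyte-like cells (26.2 ± 9.50 CPM) differed by -0.09 (SE 0.381, edgeR adjusted p = 0.919). In germ cells *Pdgfb* was highest in undifferentiated spermatogonia-like cells (16.1 ± 4.20 CPM), lower in the early differentiating class (10.1 ± 3.61 CPM) and lower again in the late class (2.81 ± 0.756 CPM). The first of these steps did not pass the test (0.57, SE 0.310, edgeR adjusted p = 0.154) and the second did (1.89, SE 0.328, edgeR adjusted p = 5.04e-06). *Pdgfa* and *Pdgfb* thus had different courses over the same stages, *Pdgfa* being highest in the differentiating classes and *Pdgfb* in the undifferentiated and early ones. By number the 5 germ classes held 41.8% of the 677 *Pdgfb* UMIs, near their 39.4% of all UMIs, macrophage-like cells 25.8% and endothelial-like cells 11.1%. RT-like cells had 2 *Pdgfb* UMIs in all, against 44 in SV Sertoli-like cells, a ratio of levels of 24.2 (exact 95% interval 6.30 to 206).

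*Pdgfc*, a ligand secreted in a latent form that proteases activate, was highest in fibroblast-like cells, at 59.7, 94.2, 68.5 and 111 CPM (83.4 ± 23.5, n = 4). RT-like cells came next with 11.3, 43.3, 57.9 and 71.0 CPM (45.9 ± 25.7, n = 4), from 3, 25, 14 and 47 UMIs, and fibroblast-like cells exceeded them by 1.43 on the log2 scale (SE 0.243, edgeR adjusted p = 1.90e-06). SV Sertoli-like cells (27.6 ± 9.22 CPM) and tubule Sertoli-like cells (25.8 ± 3.31 CPM) had levels within the spread of each other. The tubule class joined clusters of 2798 and 2368 cells, with medians of 8355 and 2653 UMIs per cell. Pooled over the libraries these had *Pdgfc* at 29.4 and 12.9 CPM, a difference that was not tested. Germ classes had at most 1.83 CPM. Fibroblast-like cells held 59.7% of its 3324 UMIs, and with myoid-like (11 CPM) and interstitial stroma-like cells (5.84 CPM), which were below RT-like and both Sertoli-like classes in mean level, the share was 68.1%. Tubule Sertoli-like cells held 24.3%, near their 21.7% of all UMIs.

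Among the classes used, *Pdgfd*, the latent ligand of PDGFRβ, had its highest mean in RT-like cells, at 37.8, 38.1, 24.8 and 39.3 CPM (35.0 ± 6.81, n = 4), from 10, 22, 6 and 26 UMIs. Fibroblast-like cells had 29.9, 29.0, 26.8 and 27.8 CPM (28.4 ± 1.35, n = 4), and the 2 classes, neighbours in the order of levels, did not differ beyond their spread (-0.28 for RT-like minus fibroblast-like, edgeR adjusted p = 0.427). The fitted sign is opposite to the order of the mean CPM, so which of these 2 classes is higher depends on the scaling. The 17 mesothelial-like cells, too few to use, had *Pdgfd* at 83.8 CPM pooled over the libraries. The pooled RT-like level was 36.7 CPM, and this difference was not tested. Leydig-like cells had 22.1 ± 8.29 CPM and endothelial-like cells 18.4 ± 10.4 CPM. In tubule Sertoli-like cells 1 *Pdgfd* UMI was found in 5166 cells, which put the RT-like level 1167 times higher with an exact 95% interval of 202 to 46825. SV Sertoli-like cells had 5 UMIs, 4 of them in control library 1. No *Pdgfd* UMI was found in undifferentiated spermatogonia-like or spermatocyte-like cells, so that the RT-like level was at least 78.6-fold and at least 154-fold higher, respectively, when 3 UMIs over the class are taken as the upper limit of a count of 0.

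SV Sertoli-like cells therefore differed from tubule Sertoli-like cells in *Pdgfa* and *Pdgfb* but not detectably in *Pdgfc*. In the test of SV Sertoli-like against tubule Sertoli-like cells, 3 of 6 Pdgf genes passed, where 35.3% of the 13983 genes tested passed. *Pdgfa* was higher in SV Sertoli-like cells by 4.07 on the log2 scale (SE 0.257, edgeR adjusted p = 7.25e-19) and *Pdgfb* by 4.67 (SE 0.438, edgeR adjusted p = 1.12e-12), in 4 of 4 libraries each. *Pdgfd* was the other one, at 5.01 (SE 1.19, edgeR adjusted p = 0.000747), and it lost the call without control library 1 (edgeR adjusted p = 0.284). *Pdgfc* differed by -0.32 (SE 0.308, edgeR adjusted p = 0.445), a sign that turned under the DESeq2 scaling. With the edgeR scaling 958 genes were higher and 3972 lower in SV Sertoli-like cells, and with that of DESeq2 1729 were higher and 1195 lower, a median shift of 0.39 on the log2 scale that is small beside the *Pdgfa* and *Pdgfb* differences.

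Relative to tubule Sertoli-like cells, RT-like cells shared higher *Pdgfa* but not higher *Pdgfb* with the SV, and added *Pdgfra*. Higher *Pdgfd* was called in both, in SV Sertoli-like cells from 5 UMIs. The *Pdgfa* level itself was not particular to RT-like cells. Preleptotene-like minus RT-like cells gave 0.27 (SE 0.297, edgeR adjusted p = 0.433). RT-like minus macrophage-like cells gave 0.31 (SE 0.392, edgeR adjusted p = 0.551). The tubule Sertoli-like mean (6.87 CPM) was the lowest except that of spermatocyte-like cells (5.91 CPM). Against tubule Sertoli-like cells, 3 of 6 Pdgf genes passed, a share near the 54.9% of all genes that passed, so that the count says nothing of the family. All 3 were higher in RT-like cells, *Pdgfa* by 2.14 (SE 0.338, edgeR adjusted p = 2.73e-07), *Pdgfd* by 8.35 (SE 0.559, edgeR adjusted p = 7.08e-18) and *Pdgfra* by 4.89 (SE 0.299, edgeR adjusted p = 1.49e-20). The share of genes called higher moved with the scaling there too, from 2697 higher and 4975 lower by edgeR to 4185 and 2659 by DESeq2, with a median shift of 0.47. Against SV Sertoli-like cells, 4 of 6 passed, beside 32.5% of all genes. *Pdgfa* (-1.93, SE 0.299, edgeR adjusted p = 5.13e-07) and *Pdgfb* (-4.61, SE 0.731, edgeR adjusted p = 8.69e-07) were lower in RT-like cells, and *Pdgfd* (3.34, SE 0.583, edgeR adjusted p = 7.70e-06) and *Pdgfra* (4.31, SE 0.466, edgeR adjusted p = 5.44e-11) were higher. When the fit held only these 2 classes, 2 of the 4 passed, *Pdgfa* and *Pdgfra*, since *Pdgfb* and *Pdgfd* fell to the low-count filter. *Pdgfc* did not pass in either comparison of RT-like cells (0.32, SE 0.261, edgeR adjusted p = 0.308, and 0.65, SE 0.358, edgeR adjusted p = 0.174); the first passed among cells with under 10% mitochondrial UMIs (0.72, edgeR adjusted p = 0.0326) and in the fit of the 2 classes alone (0.62, edgeR adjusted p = 0.0390).

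Both receptors were found mostly in stromal classes, with different leading classes. *Pdgfra*, which marks mesenchymal cells in many organs, was at 1150, 957, 939 and 771 CPM in interstitial stroma-like cells (954 ± 155, n = 4), at 648, 552, 657 and 436 CPM in myoid-like cells (573 ± 103, n = 4) and at 318, 328, 367 and 324 CPM in fibroblast-like cells (334 ± 22.0, n = 4). These 3 classes held 94.7% of its 24525 UMIs. Leydig-like cells, the androgen-producing cells, had 108, 223, 271 and 156 CPM (189 ± 71.7, n = 4), and RT-like cells, the one epithelial class above 100 CPM, had 129, 113, 236 and 237 CPM (179 ± 67.2, n = 4). Leydig-like and RT-like cells did not differ beyond their spread (0.50, edgeR adjusted p = 0.128). RT-like cells exceeded macrophage-like cells, the next class, by 2.95 (edgeR adjusted p = 4.31e-09), and the 5 germ classes, at 3.04 to 6.4 CPM, and tubule Sertoli-like cells, at 4.24 ± 1.61 CPM, shared a like low level. SV Sertoli-like cells, at 13.9, 3.22, 6.39 and 7.48 CPM (7.75 ± 4.48, n = 4), were near that level, so *Pdgfra* separated RT-like cells from the adjoining SV Sertoli-like cells. After thinning to 2000 UMIs, 76.8% of interstitial stroma-like, 58.4% of myoid-like, 44.6% of fibroblast-like, 31.1% of Leydig-like and 23.7% of RT-like cells had a *Pdgfra* UMI (93.9%, 89.7%, 79.5%, 73.7% and 42.7% before thinning). In undifferentiated spermatogonia-like cells, which had the highest share of the germ classes, it was 1.57% after and 7.29% before thinning, at median depths of 11893 UMIs per cell there and 7747 in RT-like cells.

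*Pdgfrb*, the receptor of mural cells, was highest in pericyte-like cells, at 288, 400, 266 and 560 CPM (379 ± 134, n = 4). Fibroblast-like cells had 50.8, 73.0, 70.1 and 69.4 CPM (65.8 ± 10.1, n = 4), interstitial stroma-like cells 56.6, 29.7, 50.4 and 28.9 CPM (41.4 ± 14.2, n = 4) and myoid-like cells 18.7, 16.5, 18.6 and 16.6 CPM (17.6 ± 1.22, n = 4). The values of endothelial-like cells were widely spread, at 169, 44.4, 0 and 16.8 CPM from 11, 8, 0 and 3 UMIs. Pericyte-like cells made up 1.36% of the UMIs of the named classes and held 26.3% of the 2883 *Pdgfrb* UMIs. Most of the others lay in the more numerous fibroblast-like cells, which held 52.2%, and myoid-like, fibroblast-like and interstitial stroma-like cells together held 71.2%. No *Pdgfrb* UMI was found in any RT-like or SV Sertoli-like cell, so the pericyte-like level was at least 221-fold and at least 201-fold higher, and the fibroblast-like level at least 39.7-fold and at least 36.2-fold higher, than 3 UMIs over those classes.

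**Figure D2:**
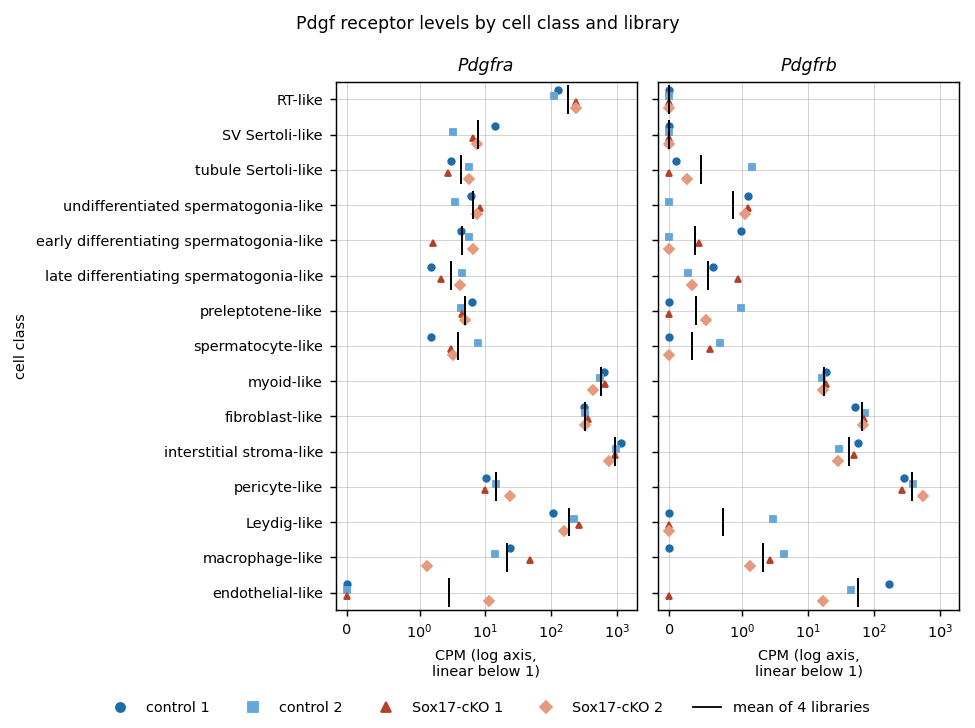
Level of *Pdgfra* and *Pdgfrb* in the 15 named cell classes, in CPM on a logarithmic axis that is linear below 1, with 1 symbol for each of the 4 libraries and a bar at their mean. *Pdgfra* is highest in interstitial stroma-like cells (mean 954 CPM) and *Pdgfrb* in pericyte-like cells (mean 379 CPM), and *Pdgfrb* is at 0 in RT-like and SV Sertoli-like cells.

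Pericyte-like cells stood opposite the other stromal classes in both receptors. Against fibroblast-like cells, all 6 Pdgf genes passed, beside 30.5% of all genes: *Pdgfrb* was higher by 2.20 (SE 0.197, edgeR adjusted p = 3.92e-13), *Pdgfa* by 1.66 and *Pdgfb* by 4.98, whereas *Pdgfra* was lower (-4.82, SE 0.346, edgeR adjusted p = 2.44e-17), as were *Pdgfc* (-2.89) and *Pdgfd* (-1.77). Against myoid-like cells 4 of 6 passed, beside 30.0% of all genes, with *Pdgfrb* higher by 4.16 (SE 0.230, edgeR adjusted p = 1.57e-20) and *Pdgfra* lower (-5.58, SE 0.339, edgeR adjusted p = 3.29e-20). Against interstitial stroma-like cells 4 of 6 also passed, beside 29.6% of all genes, with *Pdgfrb* higher by 3.28 (SE 0.231, edgeR adjusted p = 1.31e-16) and *Pdgfra* lower (-6.13, SE 0.336, edgeR adjusted p = 6.16e-22). *Pdgfa* and *Pdgfb* were higher in pericyte-like cells in both. The DESeq2 scaling moved the median gene by 0.16 to 0.23 in these 3 comparisons and turned the balance of calls, from 1357 higher and 2910 lower to 1928 and 1689 against fibroblast-like cells, from 1436 and 2763 to 1984 and 1525 against myoid-like cells, and from 1667 and 2478 to 2120 and 1633 against interstitial stroma-like cells; the receptor differences were many times larger.

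The 3 *Pdgfra*-rich classes also differed among themselves. Interstitial stroma-like cells exceeded fibroblast-like cells in *Pdgfra* by 1.31 (SE 0.202, edgeR adjusted p = 5.37e-07), and were lower in *Pdgfrb* (-1.08, SE 0.222, edgeR adjusted p = 0.000129), a call that DESeq2 did not make (adjusted p = 0.160). In this comparison 5 of 6 Pdgf genes passed, beside 23.4% of all genes, and *Pdgfa* (-2.72), *Pdgfc* (-3.83) and *Pdgfd* (-1.17) were all lower in interstitial stroma-like cells. Myoid-like cells exceeded fibroblast-like cells in *Pdgfra* by 0.75 (SE 0.199, edgeR adjusted p = 0.00223; DESeq2 adjusted p = 0.0921) and were lower in *Pdgfrb* (-1.96, SE 0.219, edgeR adjusted p = 2.03e-10). Here too 5 of 6 passed, beside 29.2% of all genes, with *Pdgfa* (-1.49), *Pdgfc* (-2.78) and *Pdgfd* (-1.41) lower in myoid-like cells. All 3 classes had UMIs of these 3 ligands and of both receptors, and fibroblast-like cells had the highest levels of the 3 ligands. Between interstitial stroma-like and myoid-like cells 4 of 6 passed, beside 15.6% of all genes. Of these, *Pdgfra* (0.56, SE 0.200, edgeR adjusted p = 0.0476) lost the call with DESeq2 (adjusted p = 0.239) and without control library 1, control library 2 or Sox17-cKO library 2, and *Pdgfrb* (0.88, SE 0.252, edgeR adjusted p = 0.00993) lost it with DESeq2 (adjusted p = 0.0568). *Pdgfa* (-1.23, SE 0.295, edgeR adjusted p = 0.00155) and *Pdgfc* (-1.05, SE 0.301, edgeR adjusted p = 0.00972) were lower in interstitial stroma-like cells, the latter not by DESeq2 (adjusted p = 0.126) or without Sox17-cKO library 2 (edgeR adjusted p = 0.395). Leydig-like cells were lower than interstitial stroma-like cells in *Pdgfra* (-2.31, SE 0.230, edgeR adjusted p = 4.15e-12), *Pdgfrb* (-5.03) and *Pdgfc* (-2.28), 3 of 6, beside 33.6% of all genes; *Pdgfc* lost the call without control library 2 (edgeR adjusted p = 0.369).

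**Figure D3:**
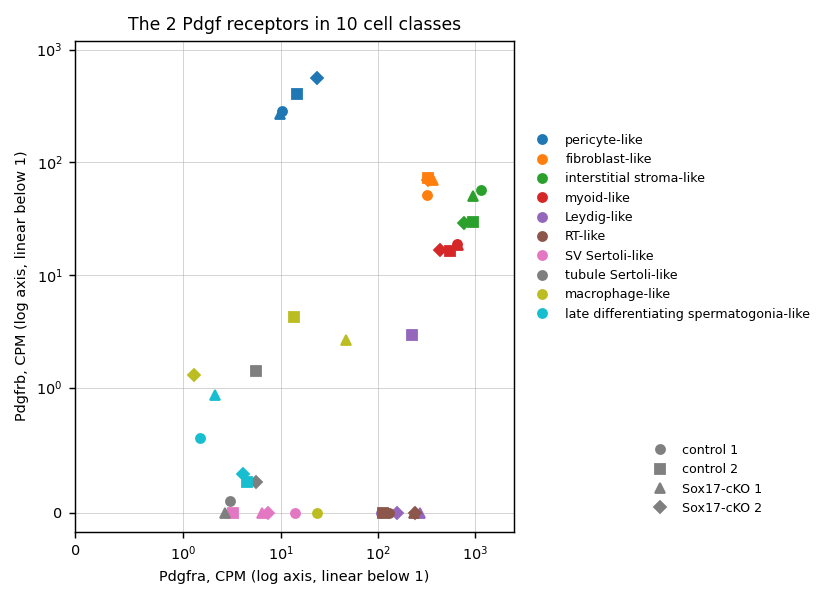
*Pdgfrb* against *Pdgfra* in CPM, both on logarithmic axes that are linear below 1, for 10 cell classes (colours) and 4 libraries (symbols). Pericyte-like cells lie at the upper left, with *Pdgfrb* of 266 to 560 CPM and *Pdgfra* of 9.78 to 23.7 CPM, and fibroblast-like, interstitial stroma-like and myoid-like cells lie at the right with both receptors.

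Within the classes, the receptors were found together in a cell about as often as their separate shares give. At 2000 UMIs per cell, 186 fibroblast-like cells had UMIs of both, where the product of the shares over all libraries pooled gives 167; the pairs of values were 94 and 91.4 for interstitial stroma-like, 50 and 48.5 for myoid-like, and 6 and 4.95 for pericyte-like cells. At the finer clustering resolution of 0.8 the fibroblast-like cells fell into 2 clusters that differed in level. A cluster of 1136 cells led by *Lum*, *Sfrp1*, *Dpt* and *Mfap5* had *Pdgfrb* at 113, *Pdgfra* at 418 and *Pdgfc* at 115 CPM over all its cells, and one of 1730 cells had 40.4, 278 and 75.2 CPM. These values pool the libraries and were not tested.

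Between genotypes, no Pdgf gene passed the threshold in any class in the comparison of 2 libraries against 2 without a replicate term. Of the 90 pairs of a Pdgf gene and a class, 45 had enough counts to test with edgeR. Of these 45, 0 passed after adjustment and 1 had an unadjusted p under 0.05, and with DESeq2 0 passed. In RT-like cells 9 of 6787 genes passed (0.133%), 1 of them higher (0.0147%) and 8 lower (0.118%), while the unadjusted p was under 0.05 for 392 and DESeq2 passed 20. The 1 unadjusted value was *Pdgfra* in RT-like cells, at 129 and 113 CPM in the controls against 236 and 237 CPM in Sox17-cKO (34 and 65 against 57 and 157 UMIs). Both Sox17-cKO libraries lay above both controls, with ratios of 1.83 within replicate 1 and 2.11 within replicate 2. Of the 45 tested pairs 8 had groups that did not overlap, and the share over all genes is not given here. The log2 difference of *Pdgfra* in RT-like cells was 0.94 (SE 0.287, edgeR adjusted p = 0.486). With the replicate number, which coincides with the Cell Ranger version, as a term of the fit it was 0.96 (SE 0.240) and passed (edgeR adjusted p = 0.0115). The share of all genes that passed with this term is not given here. Counted by cell, which restates the same UMIs and is no further test, a *Pdgfra* UMI was found in 8 of 36 cells (22.2%, exact 95% interval 10.1 to 39.2) and 19 of 73 cells (26.0%, 16.5 to 37.6) of the controls, and in 22 of 33 cells (66.7%, 48.2 to 82.0) and 48 of 85 cells (56.5%, 45.3 to 67.2) of Sox17-cKO. The intervals treat the cells of a library as independent and leave out the spread between libraries. After thinning to 2000 UMIs the shares were 14.3% and 11.3% against 33.3% and 34.9%. In the same RT-like cells the summed markers of fibroblasts were at 45.4, 256, 120 and 154 CPM, those of interstitial stroma at 90.8, 171, 137 and 239 CPM, those of peritubular myoid cells at 155, 447, 91.0 and 142 CPM and those of Leydig cells at 756, 795, 257 and 664 CPM. The fibroblast list had *Dpt* at 0 in all libraries and the Leydig list *Hsd3b1* and *Hsd3b6*. The interstitial stroma sum was higher in Sox17-cKO than in the control within both replicates, as *Pdgfra* was. The peritubular myoid and Leydig sums were lower in Sox17-cKO within both replicates. The fibroblast sum was higher within replicate 1 and lower within replicate 2. The part of these cells in the *Pdgfra* values was not tested.

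**Figure D4:**
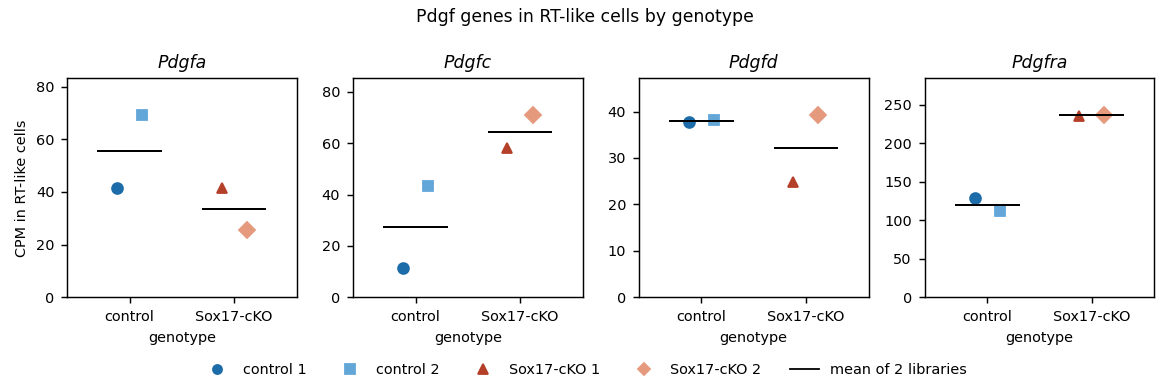
Level in RT-like cells of *Pdgfa*, *Pdgfc*, *Pdgfd* and *Pdgfra* by genotype, in CPM, with 1 symbol per library and a bar at the mean of the 2 libraries of each genotype. *Pdgfra* is at 129 and 113 CPM in the controls and at 236 and 237 CPM in Sox17-cKO. No gene shown passed the adjusted threshold between genotypes in the main comparison. *Pdgfra* passed with the replicate number as a term, where the share of all genes that passed is not given. The labels do not say that these numbers pair the samples.

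The ligands of the RT-like cells differed less clearly. *Pdgfa*, at 41.6 and 69.2 CPM in the controls against 41.4 and 25.7 CPM in Sox17-cKO, had a log2 difference of -0.92 (SE 0.441, edgeR adjusted p = 0.906). The ratio of Sox17-cKO to control was 0.99 within replicate 1 and 0.37 within replicate 2. *Pdgfc*, at 11.3 and 43.3 CPM against 57.9 and 71.0 CPM, had a difference of 1.05 (SE 0.493, edgeR adjusted p = 0.906), and its control library 1 value came from 3 UMIs. It was 0.59 without control library 1 and 2.46 without control library 2, and passed in neither. *Pdgfd* overlapped between groups (-0.19, SE 0.426, edgeR adjusted p = 0.997). In SV Sertoli-like cells, edgeR passed 0 of 5624 genes (0%), with 87 at an unadjusted p under 0.05, and DESeq2 also 0. *Pdgfa* there had a difference of -0.68 (SE 0.403, edgeR adjusted p = 0.9998) with overlapping groups. The difference between RT-like and SV Sertoli-like cells in the *Pdgfa* change was -0.23 (SE 0.640, edgeR adjusted p = 0.9998), and that between RT-like and tubule Sertoli-like cells was -0.76 (SE 0.820, edgeR adjusted p = 0.9999). Both turned sign without control library 2, to 0.68 and 0.36. Over the 14 classes other than RT-like cells, 41 tests of a Pdgf gene gave log2 differences of -0.81 to 0.31, with a lowest edgeR adjusted p of 0.9995. No gene passed with edgeR in these classes, where 10 to 93 genes each had an unadjusted p under 0.05 and DESeq2 passed 2 in fibroblast-like and 1 in endothelial-like cells. Replicate 1 of both genotypes was processed with Cell Ranger 6.0.2 and replicate 2 with 6.1.2, and the share of unnamed cells was 13.4% and 23.5% in the former and 2.51% and 6.01% in the latter.

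Genes that act with the Pdgf family were taken as 3 lists. The first list held 14 genes of ligand activation and binding, among them proteases that release PDGF-C and PDGF-D, the second 25 genes of signal transduction below the receptors, and the third 14 related Vegf genes and class III receptor tyrosine kinases. In the first list the highest levels were those of *Sparc*, a matrix protein that binds PDGF (15540 CPM in fibroblast-like cells), *Pdgfrl*, a receptor-like gene (429 CPM in fibroblast-like cells), *Nrp1*, a co-receptor (367 CPM in endothelial-like and 129 CPM in RT-like cells), and *Lrp1* (327 CPM in interstitial stroma-like cells). For the second list they were those of the PI3-kinase subunit *Pik3r1* (253 CPM in fibroblast-like cells), *Rasa1* (240 CPM in spermatocyte-like cells), the adaptor *Grb2* (227 CPM in macrophage-like cells) and the Src-family kinase *Fyn* (226 CPM in tubule Sertoli-like cells). In the third list *Csf1r* (785 CPM) was highest in macrophage-like cells, *Flt1* (630 CPM) and *Kdr* (601 CPM) in endothelial-like cells, and the Kit ligand *Kitl* (318 CPM) in tubule Sertoli-like cells. *Kdr*, the main Vegf receptor, had its second highest level in RT-like cells, at 402 CPM against 4.47 CPM in SV Sertoli-like cells.

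In RT-like against SV Sertoli-like cells, 3 genes of the first list were higher and 2 lower of 12 tested (median difference -0.22 on the log2 scale), 7 higher and 2 lower of 25 in the second (-0.03), and 3 higher and 2 lower of 12 in the third (0.13), beside a median of 0.03 over all genes, of which 32.5% passed. Against tubule Sertoli-like cells, the counts were 4 higher and 3 lower (median 0.36), 5 and 7 (-0.21), and 6 and 1 (0.81), beside -0.37 over all genes, of which 54.9% passed. The genes of that comparison that differed most included *Kdr* (6.63, edgeR adjusted p = 6.01e-33) and the Vegf-family ligand *Pgf* (7.63) in the third list and *Nrp1* (6.44) in the first. For SV Sertoli-like against tubule Sertoli-like cells they were 3 higher and 2 lower (median -0.04), 3 and 6 (-0.25), and 3 and 1 (0.67), beside -0.46 over all genes, of which 35.3% passed. In both comparisons with tubule Sertoli-like cells the balance of higher and lower genes turned with the DESeq2 scaling, as given above.

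Between genotypes, 0 of 497 tests of these genes over the 15 classes passed with edgeR. Of the 96 tests in RT-like and both Sertoli-like classes 4 had an unadjusted p under 0.05 (*Plat*, *Pcsk6*, *Nrp1* and *Fyn*, in RT-like cells). Over all genes this held for 392 of 6787 in RT-like, 87 of 5624 in SV Sertoli-like and 90 of 12029 in tubule Sertoli-like cells. The count is therefore not read as a result about the lists. The genes closest to the threshold in RT-like cells belonged to the first list, and their values were known when they were picked for naming. *Plat*, the tissue plasminogen activator, which cleaves PDGF-C, was at 87.0 and 180 CPM in the controls and at 16.5 and 19.6 CPM in Sox17-cKO, from 23, 104, 4 and 13 UMIs. The pooled control level was 8.02 times that of Sox17-cKO. Its exact 95% interval of 4.82 to 14.2 treats UMIs as independent and leaves out the spread between libraries. The log2 difference was -2.91 (SE 0.462, edgeR adjusted p = 0.0692, range 7.33e-08 to 0.142 over the alternatives that kept all 4 libraries). It passed in 6 of 11 alternatives: with DESeq2 (adjusted p = 0.00979), with edgeR without the low-count filter (adjusted p = 3.26e-07), among cells with under 10% mitochondrial UMIs (adjusted p = 0.0353), with the replicate term (adjusted p = 7.33e-08), and when control library 1 (adjusted p = 0.0280) or Sox17-cKO library 2 (adjusted p = 0.00743) was left out. In SV Sertoli-like cells the same gene was at 97.3, 138, 115 and 165 CPM, with overlapping groups. *Pcsk6*, a proprotein convertase, had 16 and 20 UMIs in the control RT-like cells and 0 and 1 in Sox17-cKO. The pooled ratio was 38.6 (exact 95% interval 6.51 to 1568, again without the spread between libraries; edgeR adjusted p = 0.101). It passed with edgeR without the low-count filter (adjusted p = 4.62e-06) and with the replicate term (adjusted p = 4.65e-05). With edgeR it did not pass after doublet removal (adjusted p = 0.246), at under 10% mitochondrial UMIs (adjusted p = 0.130) or without integration (adjusted p = 0.107). DESeq2 gave it no adjusted p, and with libraries left out its log2 difference ran from -7.06 to -4.71. *Nrp1* was at 166 and 182 CPM against 86.9 and 81.5 CPM (-1.10, SE 0.298, edgeR adjusted p = 0.377). The protease *Furin* had overlapping groups, at 34.0, 51.9, 16.5 and 84.6 CPM. The 7 of 14 genes of the list that could be tested in RT-like cells had a median difference of -0.86, beside -0.00179 over all genes. Besides *Plat*, *Pcsk6* and *Nrp1* these were *Pdgfrl* (-0.86), *Lrp1* (-0.14), *Sparc* (0.02) and *Furin* (0.34). The low-count filter can keep a gene through 1 group alone, as it did *Pcsk6*, so the median is no support for a change of the list. The other lists had medians of -0.06 over 21 and 0.02 over 5 genes.

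**Figure D5:**
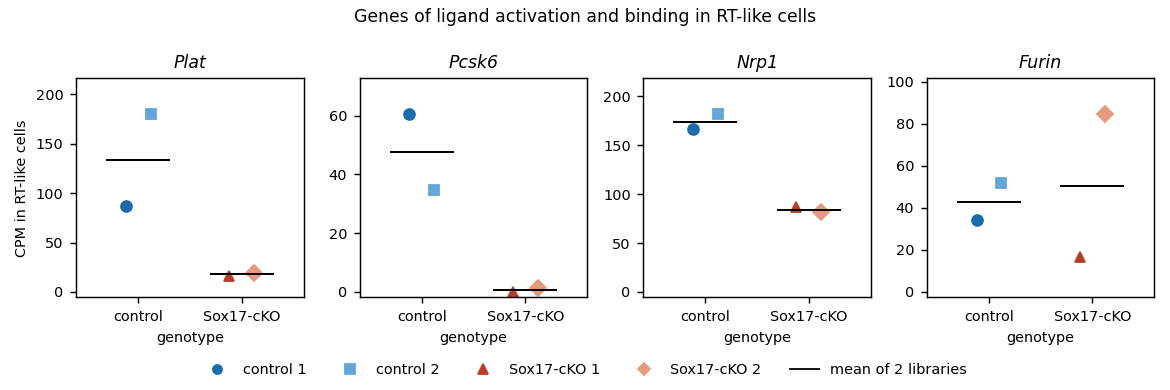
Level in RT-like cells of *Plat*, *Pcsk6*, *Nrp1* and *Furin* by genotype, in CPM, with 1 symbol per library and a bar at the mean of the 2 libraries of each genotype. *Plat* is at 87.0 and 180 CPM in the controls and at 16.5 and 19.6 CPM in Sox17-cKO. None of the genes passed the adjusted threshold in the edgeR comparison without a replicate term, and *Plat* passed in 6 of 11 alternatives.

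The genes whose level followed each Pdgf gene most closely over the 15 classes were found by Pearson's correlation of the mean log2(CPM + 1) among 7951 genes; the classes share their libraries and are not independent, so the values are descriptions. For *Pdgfa* they were *Arvcf* (0.82), *Csnk1e* (0.73) and *Cmtm4* (0.73), the weakest likeness of the 6. *Pdgfb* was most like *Snapc5* (0.94), *Ehd4* (0.86) and *Chmp2a* (0.85), and *Pdgfc* most like *Zyx* (0.89), *Plce1* (0.88) and *Mmp23* (0.88). *Ptn* (0.96), *Cd200* (0.94) and *Ltbp3* (0.94) were closest to *Pdgfd*. For the receptors, *Serpina3n* (0.96), *Htra3* (0.93) and *Sorcs2* (0.93) were closest to *Pdgfra*, and *Eln* (0.97), *Pi15* (0.96) and *Lrrc32* (0.96) to *Pdgfrb*.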

How the data were processed

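The authors made the deposited UMI counts from 10x Genomics 3′ libraries with Cell Ranger (6.0.2 for replicate 1, 6.1.2 for replicate 2) on GRCm38. These counts were used as deposited. Cells with 1000 to 4500 detected genes were kept; the methods' cut at 1% mitochondrial reads would leave 12 to 145 cells per library and was left out. Cells were clustered with Seurat 5.3.0 (integration of the 4 libraries, 2000 variable features without the 59 Pdgf and pathway genes, 20 principal components, resolution 0.4) and named by marker lists. Scrublet scores were used only in an alternative, because in 2 libraries Scrublet called 0 doublets. The methods discarded an interstitial supernatant during dissociation, so shares of interstitial cells carry no meaning here. UMIs were summed per library and class. Genotypes were compared within each class, 2 libraries against 2, and classes in 1 fit with library as a block, by edgeR 4.0.16 (quasi-likelihood, TMM, filterByExpr, Benjamini-Hochberg over all genes tested, threshold 0.05, two-sided); DESeq2 1.42.0, no low-count filter, left-out libraries, doublet removal, a 10% mitochondrial limit, no integration and other variable features were alternatives. The fits were tested on simulated data. Each library pooled 3 pups, so p-values measure the spread between pools. The Pdgf genes, lists and tests were chosen with earlier results of these data known. Named genes were all 6 Pdgf genes, the 3 genes most like each (at least 50 CPM in 1 class and 100 UMIs in all), the 4 highest genes per list, and list genes past the threshold. No list gene passed in the main genotype comparison, and *Plat*, *Pcsk6* and *Furin* were named there outside this rule.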

Additional observations from a re-analysis of the deposited data

Results flagged for a closer look

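The change of *Pdgfra* between genotypes had opposite signs in RT-like and interstitial stroma-like cells. The difference between the changes was tested by an interaction term added after the data, and these signs, were seen, and it did not pass after adjustment. *Pdgfra* was higher in both Sox17-cKO libraries in RT-like cells (0.94 on the log2 scale) and lower in both in interstitial stroma-like cells (-0.36, SE 0.288), and the difference between the changes was 1.31 (SE 0.392), which had an unadjusted p under 0.05 and an adjusted p of 0.99997 by edgeR over 9149 genes. With each library left out in turn it ran from 1.14 to 1.43.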

How the results depend on the processing

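Among the limits, 45 of 90 pairs of a Pdgf gene and a class lacked the counts for a genotype test, RT-like cells numbered 33 to 85 per library, and with 2 libraries a group leaving 1 out assumes that the lone library varies like the others. Of 162 recomputed counts of Pdgf genes called between classes 153 stayed within 1.5 times, of 160 between genotypes 159 did, and of 145 recomputed levels 144 moved by less than 1 SD. In RT-like against SV Sertoli-like cells 2 genes passed with only these classes in the fit, where *Pdgfb* and *Pdgfd* were not tested. For interstitial stroma-like against myoid-like cells 1 passed by DESeq2 and 2 to 4 with libraries left out. For early against late differentiating cells 2 passed in the 2-class fit, for late against preleptotene-like cells 1 at under 10% mitochondrial UMIs and 1 to 2 with libraries left out, and for preleptotene-like against spermatocyte-like cells 2 with all genes as variable features and 1 to 2 with libraries left out. In the main fit *Pdgfb* passed in the first of these, *Pdgfa* and *Pdgfb* in the second and *Pdgfa* in the third. Of all genes 41.4%, 39.4% and 49.1% passed there, so these counts say nothing of the family. *Pdgfc* in SV against tubule Sertoli-like cells reversed, to 0.0665 by DESeq2 and 0.11 in the 2-class fit, and ran from -0.45 to 0.0079 with libraries left out. Between genotypes, leaving out libraries gave *Pdgfra* in RT-like cells 0.84 to 1.06, *Pdgfa* there -1.21 to -0.42, *Pdgfc* there 0.59 to 2.46, *Pdgfd* there -0.63 to 0.0157 (reversed without Sox17-cKO library 1) and *Pdgfa* in SV Sertoli-like cells -1.17 to 0.17 (reversed without control library 1). The difference in the *Pdgfa* change ran from -2.45 to 0.36 against tubule and from -1.30 to 0.68 against SV Sertoli-like cells, with reversals to 0.36 and 0.68 without control library 2 and to 0.26 without Sox17-cKO library 2. The cause of these moves was not tested. The labels do not say that replicate numbers pair the samples, although deviations of same-numbered libraries correlated (0.36 in RT-like, 0.52 in tubule Sertoli-like and 0.57 in fibroblast-like cells). With the number as a block, *Pdgfra* passed in RT-like cells (0.96, edgeR adjusted p = 0.0115), the only Pdgf gene to do so there. *Plat*, *Pcsk6* and *Nrp1* passed too (edgeR adjusted p = 7.33e-08, 4.65e-05 and 0.00631). A further fit had the library, and not the replicate number, as a block. There the difference between RT-like and interstitial stroma-like cells in the *Pdgfra* change was 1.33 (edgeR adjusted p = 0.00224). This pair was chosen after its opposite signs were seen, so the call is no independent support. How many of all genes passed in these fits is not given here, so these calls have no background share beside them. Without integration no SV Sertoli-like, early differentiating or preleptotene-like class was found, and those values are left out. Shares of cells with a UMI moved with the thinning depth in 16 of 16 recomputed values.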

Other observations

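*Kdr*, which encodes the main Vegf receptor and is best known from endothelium, was at 402 CPM in RT-like cells, second to 601 CPM in endothelial-like cells. *Flt1* and *Flt4*, further Vegf receptors of endothelium, were each at 1.03 CPM in RT-like cells. *Kitl*, the ligand of the Kit receptor, had the opposite order, at 318 CPM in tubule Sertoli-like, 270 CPM in SV Sertoli-like and 52.0 CPM in RT-like cells, and differed by -3.03 between RT-like and tubule Sertoli-like cells (edgeR adjusted p = 2.21e-13).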
